A study of Mus musculus with 12 samples.

Results

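The genes described here are 34 named genes of glucose transport, glycolysis and lactate handling, out of 43629 genes counted in mouse splenic B cells. They were chosen by name, from glucose uptake to the fate of pyruvate, and all 34 were found in the count table. RNA was sequenced in 12 libraries, 4 in each of 3 groups, of B cells sorted from spleen without culture. Zfp36l1-deficient marginal zone (MZ) B cells came from Zfp36l1fl/flERT2cre/+ mice (replicates 1, 2, 7 and 8), control MZ B cells from ERT2cre/ERT2cre mice (replicates 3, 4, 5 and 6), and follicular (FO) B cells from Zfp36l1fl/fl cre- mice (replicates 3, 4, 7 and 8). The strain is given as Zfp36l1tm1.1Tnr in the labels. The MZ groups thus differ at the floxed allele and also carry different numbers of cre copies, and the FO cells carry the floxed allele without the cre. The labels give no age, no treatment with an inducer and no source animal for a library, so the spread that p-values are read against is that between these libraries and may be technical. Per the labels, both gates were positive for B220 and CD93, with MZ cells high for CD21 and negative for CD23, and FO cells positive for both.

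Zfp36l1 is an RNA-binding protein of the tristetraprolin family, which binds AU-rich elements in 3′ untranslated regions (UTRs) and promotes decay of the bound mRNA. Glycolysis splits glucose into pyruvate in the cytoplasm. Glucose enters through transporters of the Slc2a family, is trapped by hexokinase and is committed by phosphofructokinase, the main control step. Pyruvate is then reduced to lactate and exported, or enters mitochondria, where it is the substrate of pyruvate dehydrogenase. B cells raise this pathway when they are activated, and MZ B cells are known for rapid responses to blood-borne antigens.

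Total counts were 28938453 to 40664963 per library, and no 2 replicates agreed within sampling noise. Levels are given as CPM, counts scaled to a common library total, on a single scale for all 12 libraries, and differences as log2 values with their standard errors (SE) from edgeR's quasi-likelihood test. A gene is called when its Benjamini-Hochberg adjusted p over all genes tested is under 0.05. Zfp36l1 itself stood at 21.99, 31.85, 28.10 and 37.52 CPM in the deficient MZ libraries and at 116.2, 109.6, 117.8 and 125.8 CPM in the control MZ libraries, without overlap (log2 difference -1.99, SE 0.13, n = 4 per group). Of its exon bases, 55.9% lie under a gene of the other strand. Of 6 MZ B cell markers, 6 were called higher in control MZ than in FO cells, and of 5 FO markers 5 were called lower. Of all genes tested there, 42.6% were called higher and 38.8% lower. Deficient replicate 1 differed most from the other libraries of its group (chi-square per gene 25.9 to 48.6, against 12.7 to 15.9 among the other deficient libraries).

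The promoters of 3 genes are shown first, because Slc2a6 and Slc2a1 are the members that differed between deficient and control MZ cells and Ldha is a much used target of hypoxia-inducible factor and Myc. Each sequence covers 250 bases before and 50 after the annotated start (RefSeq, build GRCm38.p6), 5′ to 3′ on the gene's strand. Capitals mark ACGTG on either strand, the core of the hypoxia response element, which also lies inside the E-box CACGTG that Myc binds.
Slc2a6, chr2:27027949-27028248, minus strand: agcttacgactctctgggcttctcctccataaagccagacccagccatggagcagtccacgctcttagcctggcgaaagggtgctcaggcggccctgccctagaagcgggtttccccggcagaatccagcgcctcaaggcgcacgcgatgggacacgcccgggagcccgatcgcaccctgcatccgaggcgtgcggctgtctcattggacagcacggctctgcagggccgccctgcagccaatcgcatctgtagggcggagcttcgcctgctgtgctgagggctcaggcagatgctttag
Slc2a1, chr4:119108495-119108794, plus strand: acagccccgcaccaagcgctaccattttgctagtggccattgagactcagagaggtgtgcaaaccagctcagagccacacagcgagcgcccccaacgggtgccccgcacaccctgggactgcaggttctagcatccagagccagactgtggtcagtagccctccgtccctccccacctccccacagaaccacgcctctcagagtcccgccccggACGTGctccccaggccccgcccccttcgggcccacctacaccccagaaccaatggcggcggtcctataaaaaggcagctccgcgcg
Ldha, chr7:46845554-46845853, plus strand: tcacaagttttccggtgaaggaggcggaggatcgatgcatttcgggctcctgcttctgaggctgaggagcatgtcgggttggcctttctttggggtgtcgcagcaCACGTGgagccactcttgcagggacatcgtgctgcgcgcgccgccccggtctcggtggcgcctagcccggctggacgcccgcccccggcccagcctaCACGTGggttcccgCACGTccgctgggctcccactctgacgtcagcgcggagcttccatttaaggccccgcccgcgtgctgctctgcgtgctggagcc
The Slc2a6 window held 0 matches to ACGTG, the Slc2a1 window 1, and the Ldha window 3 places, 2 of which were CACGTG; the other promoter annotated for Ldha held 0. Among all 50 promoters annotated for the 34 members, 24 (48%) held ACGTG on either strand, from 20 of the genes, against 19.62% of 32851 promoters of the same length. The strand searched is not recorded with the 19.62%, so these 2 shares may not be on the same basis. Promoters of a gene can overlap, and 1 place can then count in 2 of them, as for Aldoa. CACGTG, each match of which is also a match to ACGTG, was in 6 of the 50 (12%) against 7.15%. A match is a description of these letters, not a binding site.

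The 3′ UTRs were searched for TATTTAT on the gene's own strand, the DNA form of an AU-rich heptamer of the kind this protein family binds. Sites of 29 bases are shown for Slc2a1, the member called higher that has a match, and for Hk2 and Pfkfb3, which the text gives in every library. They come from the GRCm38 annotation, and capitals mark the heptamer.
Slc2a1, chr4:119137184-119137212, plus strand: tagatggaagaTATTTATatattttttgg
Hk2, chr6:82726563-82726591, minus strand: tgtaagtaatgTATTTATatgttcctttg
Hk2, chr6:82725901-82725929, minus strand: tttatacgagtTATTTATtccagactgtt
Pfkfb3, chr2:11472048-11472076, minus strand: agcagatgtgcTATTTATttatttaatat
Pfkfb3 has 2 overlapping matches, of which the first is shown. The heptamer was in the 3′ UTR of 10 of the 34 members (29.41%) and of 3335 of 11427 tested genes with an annotated UTR (29.19%). The members' UTRs were shorter, with a median of 989 bases against 1328, and the shares are not adjusted for length. Slc2a6, the member with the largest difference between deficient and control MZ cells, has a 3′ UTR of 551 bases with 0 matches, and Hk1, Gapdh, Eno1, Pkm and Ldha also have 0. The median log2 difference between deficient and control MZ cells was 0.02 over the 10 members with the heptamer (-0.59 to 0.31) and 0.11 over the 23 tested members without it (-0.16 to 1.71). The value of -0.59 is that of Eno2, which had 5 to 20 counts in deficient and 13 to 29 in control MZ libraries. Its 10 matches overlap in 1 repeat.

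Between deficient and control MZ cells, the 2 members called by edgeR's quasi-likelihood test were glucose transporter genes. Slc2a6 and Slc2a1 were higher in deficient cells, 0 members were lower (3 at an unadjusted p under 0.05, and 0 by DESeq2) and 31 of the 33 tested did not pass the test; Ldhb was below the filter on low counts. Of all 13987 genes tested, 3.7% were called, 2.29% higher and 1.4% lower, so 2 calls among 33 members (6.06%) are near the background share. The log2 difference was above 0 in 21 members and below 0 in 12, with a median of 0.10 against -0.004 over all genes tested. Without deficient replicate 1 the members' median was 0.03, with 17 above 0 and 16 below. That library was the highest of its group for 18 of the 33 members (54.55%), and for 33.24% of all genes tested. Among the control MZ libraries, replicate 5 was the highest for 19 of the 33 members (57.58%) and for 32.91% of all genes; without it the members' median was 0.117, with 22 above 0 and 11 below.

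**Figure D1:**
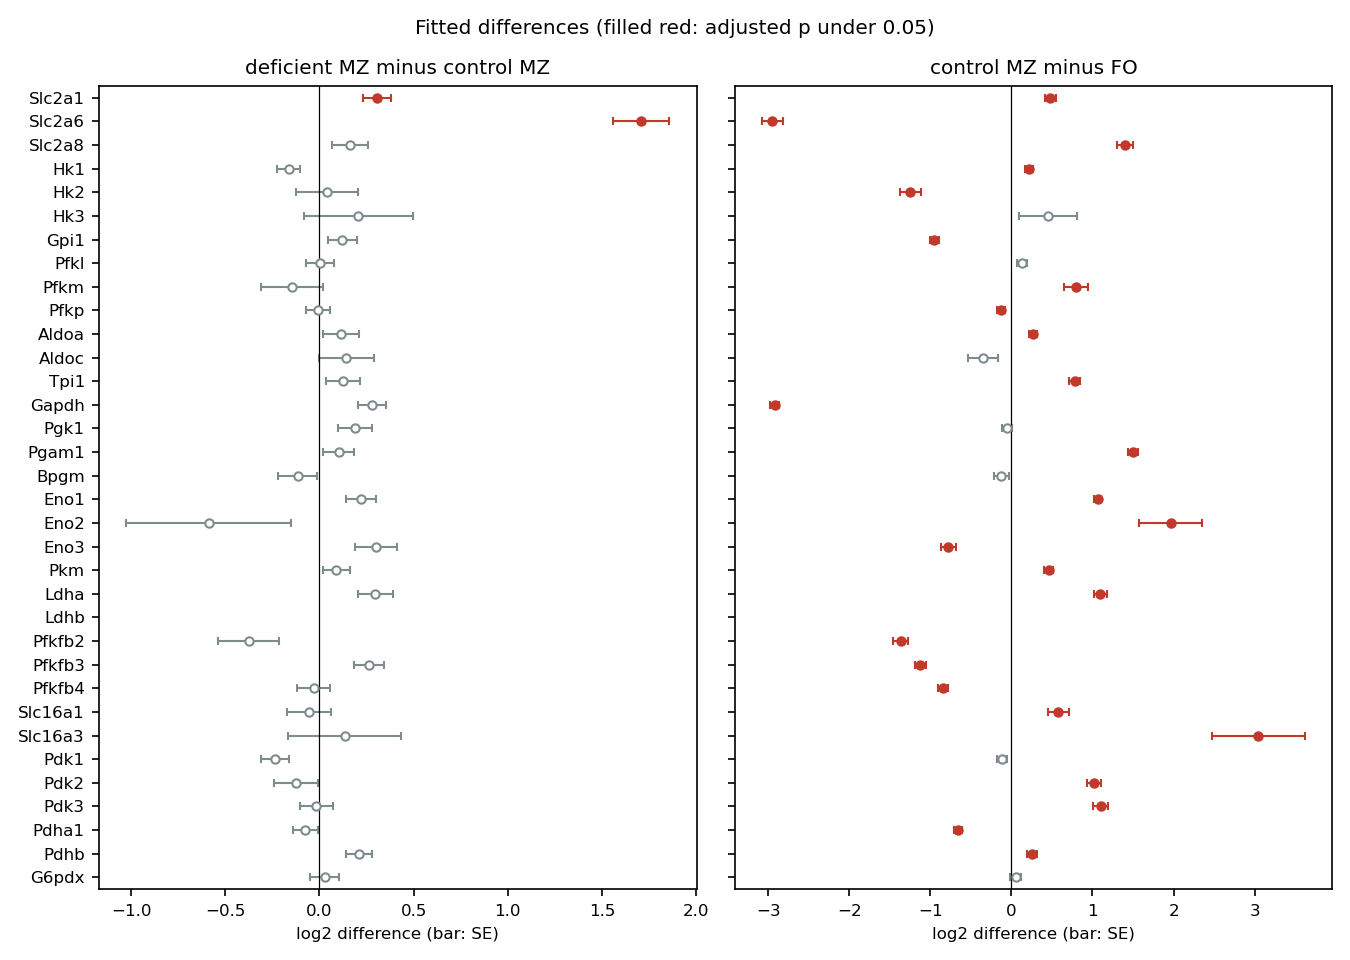
Fitted log2 differences with SE for each member, deficient minus control MZ on the left and control MZ minus FO on the right, on axes of different range; filled points have an adjusted p under 0.05. On the left only Slc2a6 (1.71) and Slc2a1 (0.31) are filled, while on the right 26 members are. Of all genes tested, 3.7% were called in the left comparison and 81.5% in the right.

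Between control MZ and FO cells the differences were larger and went both ways. Control MZ cells had higher levels of 16 members, among them Pgam1, Eno1 and Ldha and the transporters Slc2a8 and Slc2a1, and lower levels of 10, among them Slc2a6, Gpi1, Hk2 and all 3 Pfkfb genes. The 26 called members are 78.8% of the 33 tested, and 81.5% of all 13843 genes tested were called (42.6% higher, 38.8% lower), so the share of called members is near the background. Groups did not overlap for 26 members, and for 76.9% of all genes. The members' median log2 difference was 0.22 against 0.06 over all genes. The MZ and FO libraries also differ in library kit, read layout and genotype, per the series' design text, so cell type and these factors cannot be told apart in any value of this comparison. The median log2 difference of all genes fell with exon length, from 0.32 in the shortest of 5 equal bins of genes to -0.37 in the longest, and the part of this trend in each member's value was not tested. The comparisons share the control MZ libraries, so a high or low control library moves both.

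**Figure D2:**
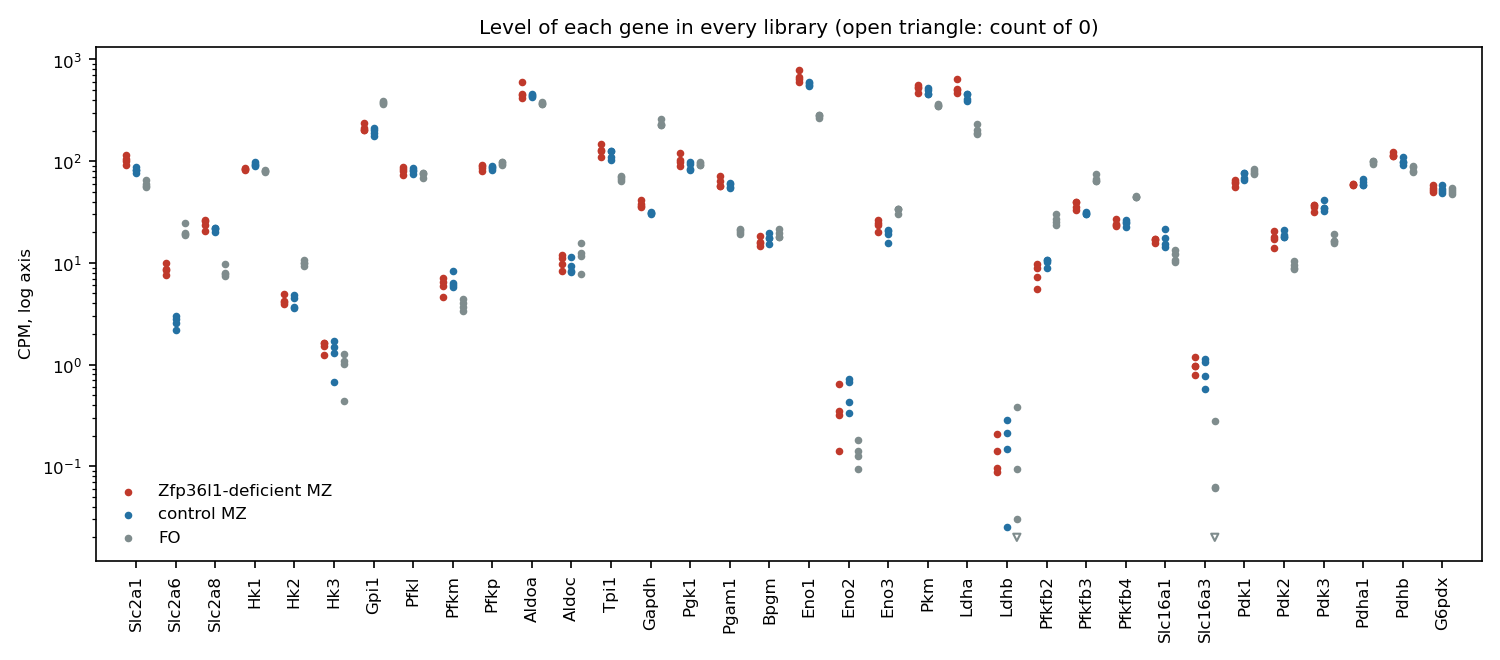
CPM of each of the 34 members in every library on a log axis, ordered along the pathway; open triangles at the bottom are counts of 0. Control MZ and FO libraries do not overlap for 26 genes, where 76.9% of all genes tested did not overlap. Deficient and control MZ libraries do not overlap for 7, where 11.9% of all genes tested did not.

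Summed over the 34 genes, the level was 3634 ± 349 CPM in deficient MZ, 3275 ± 168 CPM in control MZ and 2912 ± 80.4 CPM in FO cells (SD, n = 4 each). The deficient libraries ran from 3296 to 4122 CPM and overlapped the control libraries, which ran from 3107 to 3467 CPM. The FO libraries, at 2854 to 3026 CPM, lay below every MZ library. Without Gapdh, whose near-identical copies held more counts than the gene in MZ libraries, the sums were 3596 ± 346, 3244 ± 168 and 2676 ± 66.3 CPM. Per kilobase of the longest coding transcript, the most abundant members in control MZ cells were Aldoa (286 CPM per kb), Eno1 (284), Ldha (237) and Pkm (200). In FO cells they were Aldoa (239 CPM per kb), Gapdh (166), Pkm (147) and Eno1 (137). Per kilobase of all exons together, Aldoa also led in both groups, at 152 and 127 CPM per kb, and the order of the others changed.

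Slc2a6 (ENSMUSG00000036067, chr2:27021363-27027998, minus strand, protein coding) encodes GLUT6, a sugar transporter found largely on intracellular membranes and known from leukocytes. It stood at 8.49, 8.77, 7.67 and 9.87 CPM in deficient MZ, at 2.79, 2.57, 3.01 and 2.19 CPM in control MZ, and at 18.93, 24.40, 19.65 and 19.26 CPM in FO libraries. The 3 groups did not overlap: FO was highest, control MZ lowest, and deficient MZ lay between. The log2 difference was 1.71 between deficient and control MZ (SE 0.15, adjusted p = 2.59e-05, edgeR quasi-likelihood test) and -2.95 between control MZ and FO (SE 0.13, adjusted p = 6.84e-10, the same test). The call between deficient and control MZ held without any single library, with log2 differences of 1.63 to 1.77. No exon base of Slc2a6 lies under another gene, and 0 genes in the annotation had a near-identical stretch of it. Its neighbours within 50 kb that could be tested, Cacfd1 (log2 difference -0.15) and Adamts13 (0.39), did not pass the test between deficient and control MZ cells.

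Slc2a1 (ENSMUSG00000028645, chr4:119108711-119137983, plus strand, protein coding) encodes GLUT1, the transporter for basal glucose uptake in most cells and the one induced in activated lymphocytes. It stood at 114.8, 104.0, 100.2 and 92.73 CPM in deficient MZ, at 88.47, 82.78, 82.83 and 76.70 CPM in control MZ, and at 65.80, 59.56, 55.84 and 57.41 CPM in FO libraries. Again the groups did not overlap, but the order was another: deficient MZ was highest and FO lowest. The log2 difference between deficient and control MZ was 0.31 (SE 0.08, adjusted p = 0.0408, edgeR quasi-likelihood test). This call was lost when any of 7 of the 8 libraries was left out, with an adjusted p of 0.0561 to 0.115, and was kept only without deficient replicate 8. Between control MZ and FO the log2 difference was 0.48 (SE 0.07, adjusted p = 2.04e-05, edgeR).

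Slc2a8, which encodes GLUT8, an intracellular hexose transporter, was at 26.03, 20.51, 23.73 and 26.24 CPM in deficient MZ, at 22.12, 22.09, 21.31 and 20.24 CPM in control MZ and at 7.97, 7.37, 9.78 and 7.70 CPM in FO libraries. Deficient and control MZ libraries overlapped (log2 difference 0.16, SE 0.10), and every MZ library lay above every FO library (1.40, SE 0.10, adjusted p = 5.30e-08, edgeR). Of the CPM per kilobase of the 3 Slc2a members together, Slc2a6 made up 8.67% ± 1.13 in deficient MZ, 3.35% ± 0.34 in control MZ and 30.2% ± 3.08 in FO cells (SD, n = 4). Slc2a1 made up the largest part in each group, 67.0%, 69.0% and 57.5%. Within a library, the log2 ratio of Slc2a6 to Slc2a1, which needs no scaling between libraries, was -3.76 to -3.23 in deficient MZ, -5.12 to -4.78 in control MZ and -1.80 to -1.29 in FO libraries. Slc2a3, which encodes the high-affinity transporter GLUT3 and is not among the 34, was at 84.1 ± 3.41, 87.8 ± 6.03 and 81.1 ± 7.87 CPM in deficient MZ, control MZ and FO cells, and passed the test in neither comparison.

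**Figure D3:**
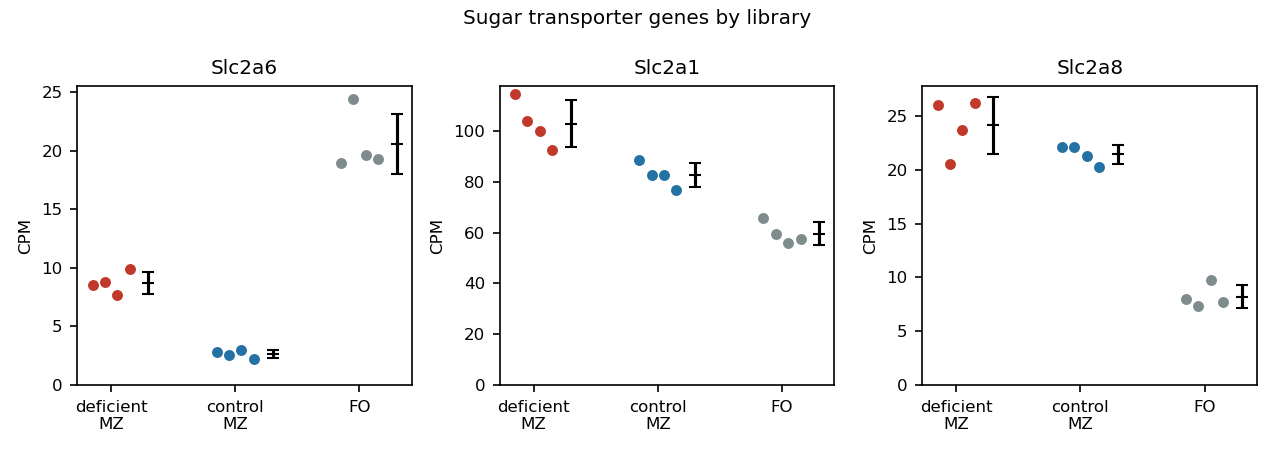
CPM of Slc2a6, Slc2a1 and Slc2a8 in each library, with the mean and SD (n = 4) beside the points. Slc2a6 is highest in FO and lowest in control MZ libraries, whereas Slc2a1 falls from deficient MZ (92.73 to 114.8 CPM) through control MZ to FO libraries.

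The hexokinases, which phosphorylate glucose on entry, did not pass the test between deficient and control MZ cells. Of 3, 0 were called by edgeR and by DESeq2, where 3.7% and 7.94% of all genes tested were called. Hk1 was the 1 at an unadjusted p under 0.05, where 19.22% of all genes were. Hk1, the mitochondria-bound form of most tissues, stood at 86.00, 84.30, 81.88 and 83.34 CPM in deficient MZ, at 93.37, 89.82, 91.79 and 98.54 CPM in control MZ and at 80.96, 82.66, 80.90 and 78.44 CPM in FO libraries. It is the only member whose deficient libraries all lay below the control MZ libraries (log2 difference -0.16, SE 0.06, adjusted p = 0.163, edgeR quasi-likelihood test). Hk2, the inducible form, stood at 4.92, 4.25, 3.93 and 4.17 CPM in deficient MZ, at 4.87, 3.59, 4.56 and 3.65 CPM in control MZ and at 9.92, 10.70, 10.02 and 9.22 CPM in FO libraries. The MZ groups overlapped (log2 difference 0.04, SE 0.16, adjusted p = 0.923, edgeR), and every FO library lay above them. Control MZ cells had more Hk1 (0.22, SE 0.05) and less Hk2 (-1.25, SE 0.13) than FO cells. Per kilobase, Hk1 made up 94.0%, 95.0% and 89.98% of the hexokinase level in deficient MZ, control MZ and FO cells, and Hk2 3.75%, 3.29% and 8.61%. Hk3, a form of myeloid cells, was at 0.44 to 1.71 CPM in every library and passed neither test.

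Gpi1, which turns glucose 6-phosphate into fructose 6-phosphate, was at 239.4, 203.7, 201.5 and 210.1 CPM in deficient MZ, at 178.8, 188.7, 212.2 and 200.8 CPM in control MZ and at 376.5, 394.5, 381.7 and 368.9 CPM in FO libraries. The MZ groups overlapped, and both lay below FO (control MZ minus FO -0.95, SE 0.06, adjusted p = 8.63e-09, edgeR). Of its exon bases 11.48% lie under a gene of the other strand, and the labels do not say whether counting used strand. Phosphofructokinase is made from Pfkl, Pfkp and Pfkm subunits, named for liver, platelet and muscle. Pfkl and Pfkp differed by less than their SE between deficient and control MZ cells (0.00 and -0.01), and Pfkm passed no test there either (-0.15, SE 0.16). Against FO cells, control MZ cells had more Pfkm (0.79, SE 0.15; 5.73 to 8.31 CPM against 3.39 to 4.39) and less Pfkp (-0.13, SE 0.05), a call that was lost without control MZ replicate 4 or 6 or FO replicate 7. Pfkl and Pfkp made up most of the level in all groups, but which of them is ahead in FO cells depends on the length used: Pfkl was 44.9% by longest transcript and 57.3% by all exons.

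The Pfkfb enzymes set the level of fructose 2,6-bisphosphate, the activator of phosphofructokinase. Pfkfb3, the form with the strongest kinase activity, stood at 35.73, 39.62, 39.49 and 33.26 CPM in deficient MZ, at 31.69, 30.26, 29.98 and 30.82 CPM in control MZ and at 63.50, 75.57, 64.43 and 66.13 CPM in FO libraries. The deficient libraries lay above the control MZ libraries without overlap, and the difference did not pass the test (0.26, SE 0.08, adjusted p = 0.0865, edgeR quasi-likelihood test). Pfkfb2 was at 5.48, 8.89, 9.83 and 7.21 CPM in deficient and 10.65, 8.92, 10.27 and 10.76 CPM in control MZ libraries (-0.38, SE 0.16, adjusted p = 0.226, edgeR), with overlap. Pfkfb4 was at 23.63, 23.86, 22.80 and 27.17 CPM in deficient and 22.77, 24.67, 25.16 and 26.31 CPM in control MZ libraries, also with overlap (-0.03, SE 0.09). Within a library, the log2 ratio of Pfkfb2 to Pfkfb3 was -2.70 to -2.01 in deficient MZ and -1.76 to -1.52 in control MZ, without overlap. Most of the other isozyme ratios computed did overlap between the MZ groups, and ratios have no share over all genes to be read against. FO cells had more of all 3: control MZ cells differed for Pfkfb2 by a log2 difference of -1.37 (SE 0.10), Pfkfb3 by -1.12 (SE 0.07) and Pfkfb4 by -0.84 (SE 0.06). In FO libraries Pfkfb2 stood at 25.18, 23.32, 30.26 and 26.79 CPM and Pfkfb4 at 43.98, 45.38, 44.41 and 44.90 CPM, above every MZ library.

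Of the enzymes from aldolase to enolase, 0 of 10 passed edgeR's test between deficient and control MZ cells. There were 3 at an unadjusted p under 0.05, and DESeq2 called 1, Gapdh. The fit of all 12 libraries also called Gapdh, with 4 at an unadjusted p under 0.05. Over all genes tested, edgeR called 3.7%, DESeq2 7.94% and the fit of all 12 libraries 5.4%. At an unadjusted p under 0.05 there were 19.22% of all genes by edgeR's test. The log2 differences were above 0 for all but Bpgm (-0.12) and Eno2 (-0.59), and for 49.17% of all genes tested. Aldoa, the main aldolase, was at 605.6 CPM in deficient replicate 1 and at 449.0, 416.3 and 459.3 CPM in the other deficient libraries, against 423.3, 441.7, 460.4 and 447.4 CPM in control MZ. Without deficient replicate 1 its log2 difference went from 0.11 to -0.01. Tpi1, triose phosphate isomerase, stood at 146.1, 126.8, 108.9 and 129.1 CPM in deficient MZ, at 103.5, 110.2, 126.4 and 125.0 CPM in control MZ and at 63.97, 71.33, 67.29 and 70.06 CPM in FO libraries. MZ groups overlapped and lay above FO (control MZ minus FO 0.78, SE 0.07, adjusted p = 3.16e-07, edgeR). Pgk1, which makes the first ATP of the pathway, did not pass either test (0.19, SE 0.09, and -0.06, SE 0.06). Aldoc, the aldolase known from brain, and Bpgm, which makes 2,3-bisphosphoglycerate in red cells, passed neither test.

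Gapdh, the dehydrogenase of glyceraldehyde phosphate, had fewer counts in MZ libraries than its near-identical copies. Counts on the gene itself (ENSMUSG00000057666) gave 41.46, 37.75, 35.72 and 36.56 CPM in deficient MZ, 30.13, 31.01, 31.11 and 31.68 CPM in control MZ and 230.2, 257.8, 227.8 and 228.0 CPM in FO libraries, and none of the groups overlapped. In the fit of the gene alone, control MZ cells were thus lower than FO cells by a log2 difference of -2.92 (SE 0.06). The table also holds 43 genes that match at least 100 bases of the Gapdh transcript at 97% identity or more, 40 of them processed pseudogenes; the matches cover 88.0% of the transcript. Those copies held 208 ± 27.5 CPM in deficient MZ, 175 ± 10.6 CPM in control MZ and 2.08 ± 0.154 CPM in FO cells (SD, n = 4), most of it on Gm12033 (82.0 CPM in control MZ, 0.008 CPM in FO) and Gm10566 (59.1 and 0 CPM). With copies added, the level was 246 ± 30.0, 206 ± 11.1 and 238 ± 14.7 CPM, and the copies' share of it was 84.5%, 84.9% and 0.877%. Summing them left a log2 difference of -0.20 between control MZ and FO (SE 0.06, adjusted p = 0.00674, edgeR). Between deficient and control MZ the difference was 0.28 for the gene alone (SE 0.07, adjusted p = 0.0522, edgeR) and 0.25 with copies (SE 0.08, adjusted p = 0.119, edgeR). The level of Gapdh relative to other genes is therefore uncertain in this table. Copies of Gpi1, Pgk1, Pgam1, Eno1 and Pdhb held at most 1.34% of the joint level in any group.

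**Figure D4:**
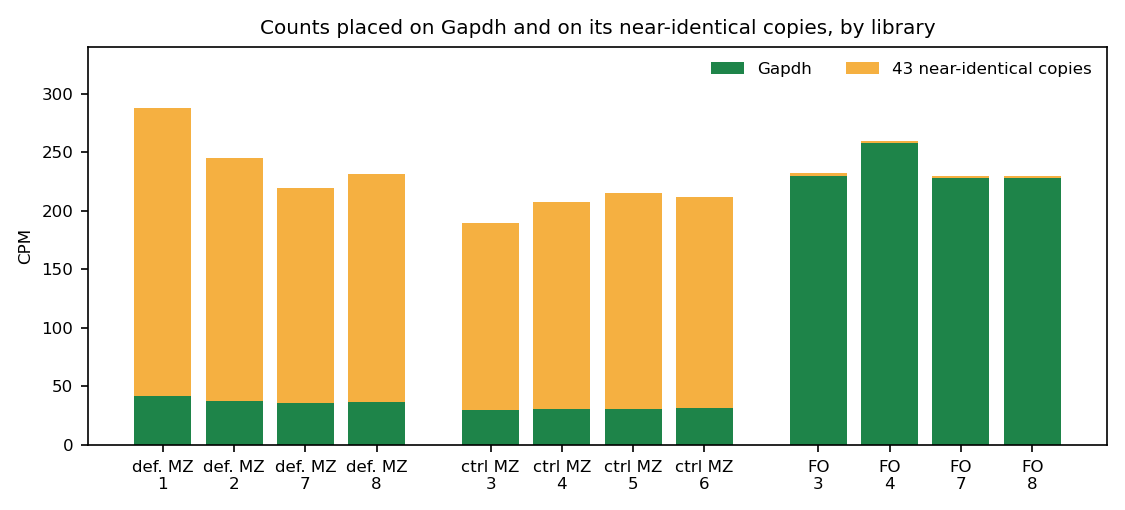
CPM counted on Gapdh (green) and on its 43 near-identical copies (orange) in each library. In MZ libraries the copies hold 159.9 to 246.7 CPM and Gapdh 30.13 to 41.46 CPM, whereas in FO libraries the copies hold at most 2.19 CPM.

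Pgam1, the phosphoglycerate mutase of most tissues, was at 71.74, 63.57, 57.45 and 56.59 CPM in deficient MZ, at 55.03, 55.33, 61.31 and 59.26 CPM in control MZ and at 19.21, 21.17, 19.99 and 21.65 CPM in FO libraries. Every MZ library lay far above FO (control MZ minus FO 1.504, SE 0.061, adjusted p = 3.68e-10, edgeR). Eno1, the enolase of most cells, had the same order, with 782.1, 668.5, 597.1 and 648.0 CPM in deficient MZ, 544.6, 566.8, 606.0 and 582.6 CPM in control MZ and 282.9, 283.9, 267.1 and 275.8 CPM in FO libraries. Its log2 difference was 1.06 between control MZ and FO (SE 0.05, adjusted p = 1.09e-09, edgeR) and 0.22 between deficient and control MZ (SE 0.08, adjusted p = 0.144, edgeR), where the libraries overlapped. Eno3, the enolase of muscle, went the other way against FO (-0.78, SE 0.09): it was at 15.8 to 21.0 CPM in control MZ and 30.6 to 34.2 CPM in FO libraries. It made up 4.12% of the enolase level per kilobase in control MZ and 13.4% in FO cells. Eno2, the enolase of neurons, rests on 13 to 29 counts in control MZ, 5 to 20 in deficient MZ and 3 to 6 in FO libraries. Eno2, Tpi1 and Gapdh lie 11.68, 11.73 and 12.08 Mb from Gt(ROSA)26Sor, which was at 17.5 CPM in deficient MZ, 0.579 CPM in control MZ and 31.3 CPM in FO cells; the part of this in their values was not tested.

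Pkm, which makes pyruvate, stood at 559.8, 532.3, 465.8 and 525.7 CPM in deficient MZ, at 462.7, 459.3, 519.3 and 505.4 CPM in control MZ and at 359.4, 368.4, 347.0 and 352.2 CPM in FO libraries. The MZ groups overlapped (0.09, SE 0.07, adjusted p = 0.536, edgeR quasi-likelihood test) and lay above FO (control MZ minus FO 0.46, SE 0.05). Counts per gene do not separate its M1 and M2 isoforms. Ldha, which reduces pyruvate to lactate, stood at 638.5, 517.7, 464.2 and 504.9 CPM in deficient MZ, at 392.8, 408.9, 455.0 and 462.8 CPM in control MZ and at 200.4, 233.5, 189.5 and 186.2 CPM in FO libraries. Deficient replicate 7 lay just above the highest control MZ library, so the groups did not overlap, but the difference did not pass the test (0.30, SE 0.09, adjusted p = 0.0922, edgeR). Control MZ exceeded FO by 1.097 (SE 0.08, adjusted p = 6.66e-08, edgeR). Ldhb, the heart form, was at most 0.38 CPM in any library, and Ldha made up at least 99.9% of the mean lactate dehydrogenase level per kilobase in each group. Slc16a1, the lactate transporter MCT1, was at 15.6 to 17.1 CPM in deficient MZ, 14.5 to 21.5 CPM in control MZ and 10.2 to 13.3 CPM in FO libraries, and was called only against FO (0.58, SE 0.13). Slc16a3, the exporter MCT4, had 28 to 42 counts in deficient MZ, 23 to 47 in control MZ and 2, 0, 2 and 10 in FO libraries, and was called higher in control MZ than in FO (adjusted p = 0.000338, edgeR).

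The pyruvate dehydrogenase kinases, which inhibit pyruvate dehydrogenase, passed no test between deficient and control MZ cells. Of 3, 0 were called by edgeR and by DESeq2, and 1, Pdk1, was at an unadjusted p under 0.05. Over all genes tested, 3.7% were called by edgeR, 7.94% by DESeq2, and 19.22% were at an unadjusted p under 0.05. Pdk1, a hypoxia-induced form, was at 56.0 to 65.5 CPM in deficient and 65.5 to 77.0 CPM in control MZ libraries (-0.24, SE 0.08, adjusted p = 0.104, edgeR). Pdk3 stood at 37.45, 35.77, 37.11 and 31.92 CPM in deficient MZ, at 32.51, 34.36, 41.21 and 34.95 CPM in control MZ and at 16.26, 19.02, 15.71 and 16.25 CPM in FO libraries. Pdk2 and Pdk3 were higher in control MZ than in FO cells (1.02, SE 0.09, and 1.099, SE 0.088), while Pdk1 was not called there (-0.12, SE 0.06). Pdk1 thus made up 55.6% of the kinase level per kilobase in FO and 35.4% in control MZ cells, and Pdk3 29.1% and 43.1%. Of the enzyme's own subunits, Pdha1 stood at 59.59, 60.10, 57.68 and 57.74 CPM in deficient MZ, at 62.17, 58.57, 67.21 and 58.19 CPM in control MZ and at 99.38, 100.0, 98.09 and 93.96 CPM in FO libraries. Every MZ library lay below every FO library (control MZ minus FO -0.66, SE 0.05), and 16.15% of the exon bases lie under a gene of the other strand. Pdhb was higher in control MZ than in FO (0.26, SE 0.06). Pdhb was at 113.2 to 123.6 CPM in deficient and 91.7 to 111.0 CPM in control MZ libraries, without overlap, and did not pass the test (0.21, SE 0.07, adjusted p = 0.112, edgeR). G6pdx, which diverts glucose 6-phosphate into the pentose phosphate pathway, was at 47.1 to 58.9 CPM in all 12 libraries and passed neither test; 13.57% of its exon bases lie under a gene of the other strand.

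**Figure D5:**
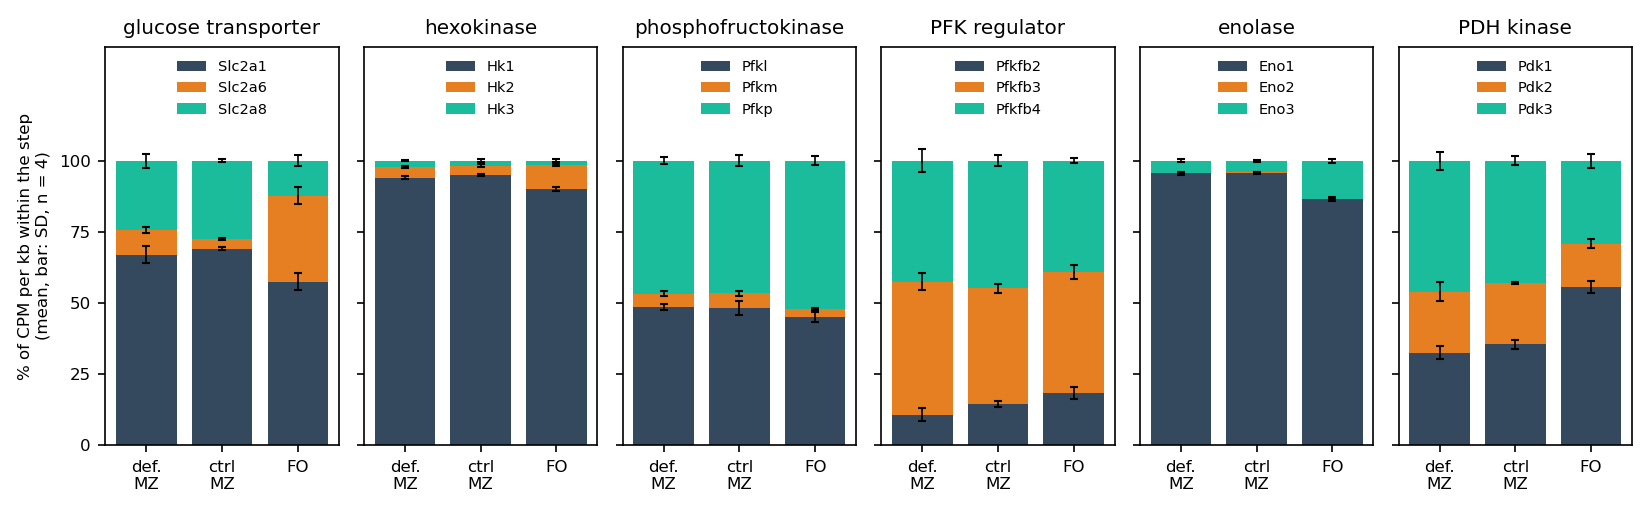
Share of each isozyme in the CPM per kilobase (longest coding transcript) of the listed members of its step, as the mean of 4 libraries with SD bars. The transporter bars hold Slc2a1, Slc2a6 and Slc2a8 and leave out Slc2a3, which was at 84.1, 87.8 and 81.1 CPM in deficient MZ, control MZ and FO cells. Slc2a6 takes 8.67% in deficient and 3.35% in control MZ cells, and FO cells have larger shares of Slc2a6 (30.2%), Hk2 (8.61%), Eno3 (13.4%) and Pdk1 (55.6%) than either.

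Not passing the test is not the same as no difference between deficient and control MZ cells. The groups did not overlap for 7 members (Slc2a1, Slc2a6, Gapdh, Ldha, Pfkfb3 and Pdhb higher, Hk1 lower), which is 7 of 33 where 11.9% of all genes tested did not overlap. At an unadjusted p under 0.05 there were 11 members, 8 of them above 0, against 19.22% of all genes. DESeq2's test called 5 members higher, adding Gapdh, Ldha and Pfkfb3, with 7.94% of all genes called. The fit with all 12 libraries called 4, adding Gapdh and Pfkfb3, with 5.4% of all genes called. At an adjusted p under 0.05, the authors' deposited table has 5 members higher (Slc2a1, Slc2a6, Gapdh, Ldha and Pfkfb3) and 0 lower. Of its 13775 genes, 7.64% were under that threshold. For control MZ against FO, the authors' deposited table has 16 members higher and 10 lower at the same threshold, with 65.7% of its genes called.

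Lists of other genes around the pathway were also counted. Between deficient and control MZ cells, the regulators of glycolysis had 3 of 24 tested genes higher and 1 lower, where 2.29% of all genes tested were called higher and 1.4% lower. DESeq2 and the fit of all 12 libraries each called 1 more regulator higher, Egln2, a prolyl hydroxylase of the oxygen-sensing pathway. Myc, which drives transcription of glycolytic genes, stood at 397.0, 522.0, 385.8 and 378.0 CPM in deficient MZ, at 235.9, 228.0, 251.7 and 311.4 CPM in control MZ and at 46.11, 56.30, 41.07 and 42.68 CPM in FO libraries. The 3 groups did not overlap, with log2 differences of 0.70 (SE 0.11, adjusted p = 0.00341, edgeR) and 2.48 (SE 0.12). Txnip, which promotes the internalization of glucose transporters, stood at 586.9, 435.4, 454.3 and 445.5 CPM in deficient MZ, at 338.0, 353.9, 416.3 and 329.4 CPM in control MZ and at 896.2, 937.3, 751.8 and 904.7 CPM in FO libraries. It was higher in deficient MZ (0.41, SE 0.10, adjusted p = 0.0345, edgeR), a call that was lost without control replicate 3, 4 or 6 or deficient replicate 8 (adjusted p = 0.0535 to 0.101), and 19.4% of its exon bases lie under a gene of the other strand. Akt2, a kinase of insulin signalling, was higher (0.56, SE 0.11) and Tsc2, an inhibitor of mTOR, lower (-0.30, SE 0.06), with the call on Tsc2 lost without control replicate 4 or 6 or deficient replicate 8. Hif1a was not called (-0.05, SE 0.09), while 2 of 9 other hypoxia-responsive genes were higher, Bhlhe40 (1.25, SE 0.10) and Ankrd37 (0.70, SE 0.10), against the same 2.29% of all genes; 26.38% of the exon bases of Ankrd37 lie under genes of the other strand, and DESeq2 called 3 of 11 higher.

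The other lists held 0 or 1 call each between deficient and control MZ cells with edgeR's test of those 8 libraries, where 3.7% of all genes tested were called. Got1, the cytoplasmic aspartate aminotransferase of the malate-aspartate shuttle, was higher at 56.3 ± 2.80 against 36.9 ± 3.59 CPM (SD, n = 4; 0.60, SE 0.08, adjusted p = 0.00085, edgeR), alone of 8 shuttle genes tested. Mdh2, mitochondrial malate dehydrogenase, was the 1 gene called of 15 genes of pyruvate entry and the citrate cycle, and was higher (0.38, SE 0.08, adjusted p = 0.0172, edgeR), a call lost without control replicate 3 or 4; DESeq2 and the fit of all 12 libraries each called a further gene higher, Dlat, a subunit of the pyruvate dehydrogenase complex. H6pd, the glucose 6-phosphate dehydrogenase of the endoplasmic reticulum, was lower, the 1 gene called of 9 pentose phosphate genes (-0.43, SE 0.09, adjusted p = 0.0216, edgeR), a call kept only without deficient replicate 1 or control replicate 5 among the fits that left out a library. In that list DESeq2 and the fit of all 12 libraries also called Prps1, a phosphoribosyl pyrophosphate synthetase, higher. Slc16a6, a monocarboxylate transporter of the same family as MCT1, was the 1 gene called of 8 other transporters and sugar kinases (0.45, SE 0.12, adjusted p = 0.0499, edgeR), and of those fits only the one without control replicate 4 still called it; it was also lost in the fit of all 12 libraries, and 22.53% of its exon bases lie under genes of the other strand. Of 10 glycogen and gluconeogenesis genes, 9 serine and hexosamine genes and 4 tissue-restricted isozymes tested, 0 were called by edgeR. At an unadjusted p under 0.05 there were 1, 2 and 0, and DESeq2 called 1 glycogen gene lower, 1 serine or hexosamine gene higher and 0 of the isozymes; the fit of all 12 libraries called 1 serine or hexosamine gene higher and 0 in the other lists of these 3.

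Between control MZ and FO cells the same lists held calls in both directions. Over all genes tested in that comparison 81.5% were called, 42.6% higher and 38.8% lower, and the lists' counts are read against those shares. Among pentose phosphate genes 5 of 9 were higher and 2 lower, with Pgls, the lactonase, at 1.63 (SE 0.08) and Rpia, ribose phosphate isomerase, at -3.30 (SE 0.10). Among genes of pyruvate entry 7 of 15 were higher and 5 lower, and the mitochondrial pyruvate carrier subunits differed in sign, Mpc1 at -1.61 (SE 0.09) and Mpc2 at 1.34 (SE 0.08), with 23.05% of the exon bases of Mpc1 under a gene of the other strand. Of 8 shuttle genes 5 were higher and 3 lower; Gpd1l had the smallest p (-1.93, SE 0.06) and Slc25a13, a mitochondrial aspartate-glutamate carrier, the difference farthest from 0 (3.48, SE 0.35). Of 23 regulators 5 were higher and 13 lower, among them Foxo3 (-3.51, SE 0.08) and Stk11 (-2.44, SE 0.09), which encodes the kinase LKB1. Of the other transporters and sugar kinases 3 of 8 were higher and 3 lower, of glycogen genes 2 of 10 and 4, of serine and hexosamine genes 5 of 9 and 3, and of hypoxia-responsive genes 3 of 10 and 6. Of 4 tissue-restricted isozymes tested 3 were higher, among them Gapdhs (5.29), and 1 was lower, Pfkfb1 (-0.98). Pgam2, the mutase of muscle, was also called higher, with 86 to 174 counts in the MZ libraries and 0 to 1 in FO libraries.

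Markers of other cells were counted beside these results. Over all genes tested between deficient and control MZ cells, edgeR called 2.29% higher and 1.4% lower. The marker counts are read against those shares, and those of the fit of all 12 libraries against 5.4%. Dividing-cell markers were called higher in deficient than in control MZ cells for 5 of 8 genes (3 in the fit of all 12 libraries), with summed levels of 40.3 to 54.4 CPM in deficient MZ, 26.8 to 40.2 CPM in control MZ and 23.2 to 48.1 CPM in FO libraries. FO markers were higher in deficient MZ for 4 of 5 genes, at 1172 to 1439 CPM summed against 890.7 to 1001 CPM, while Fcer2a, which encodes the CD23 of the gate, was at 112 ± 35.5 against 129 ± 44.6 CPM. MZ markers summed to 6154 to 6711 CPM in deficient and 7102 to 7444 CPM in control MZ libraries, without overlap; of 6 genes Cd1d1 and Hes5 were called higher (0.56, SE 0.10, and 0.46, SE 0.10) and Dtx1 lower (-0.40, SE 0.07), with a median of -0.117. Of the exon bases of Hes5, 31.77% lie under a gene of the other strand. Of 6 erythroid markers tested, 1 was called higher by edgeR, 6 were at an unadjusted p under 0.05 and the fit of all 12 libraries called 0, with a median log2 difference of 1.97. Erythroid markers summed to 7.85 to 26.2 CPM in deficient MZ, 1.21 to 11.7 CPM in control MZ and 1.85 to 7.41 CPM in FO libraries. T cell markers summed to 39.5 to 45.7, 37.1 to 48.4 and 38.8 to 48.5 CPM, with 2 of 3 tested called higher. The 2 were Cd8a and Tcf7, and the median log2 difference of the 3 tested was 2.04. Macrophage and granulocyte markers summed to 26.2 to 33.6, 24.6 to 30.1 and 15.2 to 34.2 CPM, with 1 of 6 tested called higher. The 1 was Adgre1, and the median log2 difference of the 6 tested was -0.08. The T cell level was nearly all Lck (39.6, 41.5 and 40.9 CPM), while Cd3e and Cd4 had 0 counts in every control MZ library and at most 0.03 and 0.06 CPM in a deficient library. Ly6g, which marks granulocytes, had 0 counts in all MZ libraries and Mpo in the control MZ libraries. Of 5 platelet and 6 B cell markers 0 were called by edgeR or DESeq2 between the MZ groups (0 and 3 at an unadjusted p under 0.05), and of 5 plasma cell markers 1 was lower. The part of these cells in the values of the 34 genes was not tested, and in bulk samples fewer cells of a type cannot be told from less RNA per cell.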

How the data were processed

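The authors' processing is known from the submitters' processing notes, which name Trim Galore, TopHat2 2.0.12, HTSeq, DESeq2 1.10.1 and build GRCm38. Not stated there are the annotation release, the counting mode and strand. The authors deposited whole-number counts per Ensembl gene. Their deposited log2 fold changes and adjusted p-values are quoted only where the authors' table is named. The authors' deposited normalised signal, counts divided by a factor per library, was not tested. The sources differ on the FO kit: the series' design text names TruSeq Stranded for FO, while the extraction protocol names SMARTer for all samples.

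Symbols came from GENCODE M21, which matched 42548 of 43629 gene IDs. Counts were fitted with edgeR 4.0.16 in R 4.3.3 (TMM scaling, filterByExpr, quasi-likelihood test), with the 8 libraries of each comparison alone. CPM used TMM factors over 12 libraries. Lengths are of the longest coding transcript. Copies were found with blastn 2.17.0 (97% identity, 100 bases). On simulated data with 13816 genes for deficient against control MZ, the fit recovered 64.2%, 77.6% and 93.9% of genes changed 1.5, 2 and 4 times. Smaller changes, such as those of most members between these groups, were not simulated.

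The 34 genes and all lists were chosen with earlier results of these data known. All members are given. Values in every library are given for Slc2a1, Hk1, Hk2, Pfkfb3, Gapdh, Pkm and Ldha and for up to 10 further called members per comparison with the smallest p; a few others with values by library were chosen after their values were seen. From each list up to 3 called genes with the smallest p could be named, plus Slc2a3, Txnip, Hif1a and Myc; Egln2, Dlat, Prps1 and Slc25a13 were named after their values were seen. Alternatives were DESeq2 1.42.0 (size factors, test), no filter on low counts, a fit of all 12 libraries, each library left out, a replicate block, and, chosen after seeing the data, robust dispersion and summed copies.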

Additional observations from a re-analysis of the deposited data

Results flagged for a closer look

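In 4 of 99 groups of 4 libraries checked, the library farthest out stood apart from the others by a gap that took up most of the group's whole range (Dixon's test at the usual level); chance flags about 1 in 20 groups. Of these, 3 were the highest value in FO replicate 4: Slc2a6 at 24.4 CPM against 18.93 to 19.65 in the other FO libraries, Gapdh at 257.8 CPM against 227.8 to 230.2, and Pdk3 at 19.02 CPM against 15.71 to 16.26. FO replicate 4 was the highest FO library for 19 of the 33 members (57.58%) and for 27.8% of all genes tested. The other was Slc16a1 in deficient replicate 8, at 15.61 CPM against 16.9 to 17.1 in the other deficient libraries.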

How the results depend on the processing

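Between deficient and control MZ cells, the count of members called higher was 2, and it was 5 with DESeq2's test, 4 in the fit of all 12 libraries and 1 to 2 with each library left out. All genes called numbered 517, 1057 with DESeq2's test, 788 in the fit of all 12 libraries and 253 to 483 with each library left out. The sign turned, for members not called, with libraries left out for Hk2 (-0.025 to 0.124), Hk3 (-0.013 to 0.368), Pfkl (-0.036 to 0.054), Pfkp (-0.032 to 0.025) and Aldoa (-0.011 to 0.178). The same held for Slc16a1 (-0.128 to 0.063), Slc16a3 (-0.030 to 0.264), Pdk3 (-0.059 to 0.055), G6pdx (-0.012 to 0.081) and the regulator Hif1a (-0.103 to 0.020). For Pfkfb4 the values in those fits ran from -0.081 to 0. The sign also turned for Pfkl without the filter on low counts (-0.002) and for Pfkp in the fit of all 12 libraries (0.002). The cause was not tested. Between control MZ and FO cells the counts of called members stayed within 16 to 17 higher and 9 to 12 lower over the libraries left out. Control MZ and FO share replicate numbers 3 and 4, on mice of different genotype, whose deviations correlated at -0.062 and -0.147 over 8794 genes, so the numbers do not pair the libraries; with the replicate block 16 members were higher, 10 lower and 11223 genes called. Deficient and control MZ libraries share no replicate number. Of 216 recomputed isozyme ratios, 216 stayed within the spread between libraries. Leaving out 1 of 4 libraries cannot move a group mean beyond that spread, so this count says little about stability. The log2 ratio of Slc16a3 to Slc16a1, control MZ minus FO, ran from 2.257 to 3.727 over the libraries left out. The low counts of Eno2, Ldhb and Slc16a3 limit what can be said of them.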
